A study of Saccharomyces cerevisiae with 8 samples.

Results

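Gene expression in budding yeast (Saccharomyces cerevisiae) labelled as lacking both SET2 and SIR4 was compared with wild type on 4 two-colour microarrays of yeast open reading frames (ORFs). These arrays were chosen by their label, the genotype set2Δsir4Δ, and make up 4 of the 8 in the series; the other 4 compare a set2Δ single mutant with wild type. All strains were grown to log phase at 30 °C in YPAD, a rich medium with added adenine, and polyadenylated RNA was copied into cDNA labelled with the dyes Cy3 and Cy5. The double mutant carried Cy3 on arrays 1 and 4 and Cy5 on arrays 2 and 3, with wild type in the other dye. Every value below is a log2 ratio of mutant over wild type on 1 array, or a mean of these ± SE from a linear model with a term for dye orientation. The mean is over 4 arrays unless another n is given. The strain background, the mating type, the extent of each deletion and the number of clones are not given in the sources used here. Nothing in the labels says that the 4 arrays came from separate cultures, so the spread behind each p-value is that between arrays and may be technical. Wild type enters only as the other channel, so its own spread is not in the tests, and precision is limited by there being 4 arrays.

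Set2 travels with elongating RNA polymerase II and methylates lysine on histone H3 in transcribed genes, which holds back transcription from inside them. Sir4 is a structural subunit of the Sir complex, which spreads along chromatin next to telomeres and over the silent mating-type cassettes HML and HMR and keeps genes there off. Haploid cells mate as a or α cells according to the cassette copied at MAT. Cells that express a and α information together, as diploids do, make the a1-α2 repressor, which shuts off the genes that only haploids use. The α2 protein by itself shuts off the genes that only a cells use.

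Of 6267 ORFs on the table, 5469 had a value on at least 3 of the 4 arrays and were tested, and 798 were not. At an adjusted p below 0.05 (limma, Benjamini-Hochberg over all tested ORFs), 1166 ORFs were higher in the double mutant (21.3%) and 1374 were lower (25.1%), which makes 46.4% of ORFs called in either direction. With a change of at least 1.5-fold added to the rule, 270 ORFs were higher (4.94%) and 233 were lower (4.26%). The median over all tested ORFs was -0.02. Without array 1 the counts were 705 higher and 843 lower, and without array 4 the higher count was 770; those fits ask for a value on every remaining array and so test fewer ORFs. All 403 of the ORFs changed by at least 1.5-fold that could be tested without array 1 were called again, and so were all 412 that could be tested without array 4.

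The steepest changes were decreases. MFA2, a gene for the a-factor pheromone, was 83.6-fold lower, whereas the largest increase was 9.65-fold, in COS12, the outermost gene of the left end of chromosome VII. Of the 71 ORFs that were called and at least 2-fold lower, 22 were members of a list of mating genes (31.0%, against 0.841% of all tested ORFs). Of the 84 that were at least 2-fold higher, 40 lay among the outermost 15 ORF names of a chromosome end (47.6%, against 7.08% of all tested ORFs), and 14 belonged to the general stress or chaperone lists (16.7%, against 0.969%). These lists were compiled with earlier results of the same arrays known.

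The deleted genes were read first. The SET2 spot gave -1.64, -1.72, -1.94 and -1.48 on arrays 1 to 4, a mean of -1.69 ± 0.07 (adjusted p = 1.8e-08). On the set2Δ arrays the same spot had values on arrays 3 and 4 only, at -3.24 and -2.61. Both lay below every set2Δsir4Δ value, and with so few values the difference was not tested. YJL169W, whose systematic name places it beside SET2 (YJL168C) on the left arm of chromosome X, averaged -2.00 ± 0.08 (n = 3). Its name also places it beside ASG7 (YJL170C), a gene specific to a cells, which averaged -1.79 ± 0.08 (n = 3). Whether either neighbour bears on the low value of YJL169W was not tested. The SIR4 spot gave 0.04, -0.17, -0.21 and 0.05, a mean of -0.07 ± 0.06 (adjusted p = 0.36), with values on both sides of 0. SET2 was thus low on every array, and the SIR4 spot did not differ from wild type by the test. The labels do not say which stretch of SIR4 was spotted, and a spot beyond the deletion could not show it. Below, set2Δsir4Δ is therefore the name on the label.

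Genes specific to a cells were lower throughout. Of 7 listed genes, 6 were tested and all 6 were lower by more than 1.5-fold, with a median of -4.62. The other one, MFA1, a second a-factor gene, had values on arrays 2 and 3 only, at -1.82 and -1.81, and was not tested. In RNA pooled from a culture, fewer cells of a type and less RNA per cell cannot be told apart. MFA2 read -6.35, -5.74 and -7.10 on arrays 1 to 3 and had no value on array 4, and its mean was -6.39 ± 0.21 (n = 3, adjusted p = 1.2e-08). BAR1, the secreted protease that degrades α-factor, read -5.96, -5.39, -5.93 and -5.76, with a mean of -5.76 ± 0.09, or 54.2-fold lower. In both genes every array lay beyond -5, so the spread between arrays was small beside the change.

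STE2, the receptor for α-factor, read -5.85, -4.91, -5.35 and -5.79, a mean of -5.47 ± 0.08, or 44.4-fold lower. The 2 arrays with the mutant in Cy3 were the lower ones, and the dye term for STE2 passed the test (adjusted p = 0.039). AGA2, the binding subunit of a-agglutinin on the cell surface, averaged -3.77 ± 0.10 with arrays between -4.22 and -3.53. STE6, the transporter that exports a-factor, averaged -3.29 ± 0.06 with arrays between -3.46 and -3.18. ASG7, which modulates pheromone signalling after mating, averaged -1.79 ± 0.08 (n = 3). On the set2Δ arrays the same genes lay between -0.79 for AGA2 and 0.22 for MFA2, and all 6 differed between the mutants in a fit over 8 arrays, in which 2.7% of 4554 ORFs differed, 1.71% lower and 0.988% higher in set2Δsir4Δ than in set2Δ.

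Haploid-specific genes, the part of the mating machinery that both cell types share, were also lower. Of 11 listed genes, 9 were tested, and all 9 were lower by more than 1.5-fold with a median of -2.54. The subunits of the G protein that passes on the pheromone signal did not fall equally. The α subunit gene GPA1 read -4.44, -4.05 and -4.08 on arrays 1, 2 and 4, with a mean of -4.16 ± 0.09 (n = 3), or 17.8-fold lower. The β subunit gene STE4 read -3.78, -3.80, -3.99 and -3.84, with a mean of -3.85 ± 0.07, or 14.4-fold lower. The γ subunit gene STE18 read -0.86, -1.08, -1.10 and -0.80, with a mean of -0.96 ± 0.06, or 1.94-fold lower. Every array of STE18 thus lay above every array of GPA1 and STE4. Each value is a ratio within its own spot, and levels of different genes cannot be compared on these arrays.

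Downstream of the G protein, FUS3, the mitogen-activated kinase of the mating pathway, read -3.18, -4.45, -4.58 and -5.04, with a mean of -4.31 ± 0.21 (adjusted p = 8.0e-08). Array 1 was the least changed for FUS3 and still more than 1.5-fold below wild type. FAR1, which arrests the cell cycle in response to pheromone, averaged -2.71 ± 0.07, and STE5, the scaffold that holds the kinases together, averaged -1.42 ± 0.06 with arrays between -1.49 and -1.34. The remaining tested genes of the list have other roles. NEJ1, a regulator of non-homologous end joining, averaged -2.54 ± 0.06, AXL1, a protease that matures a-factor, -1.83 ± 0.07, and RDH54, a recombination helicase, -1.27 ± 0.07. RME1, a repressor of entry into meiosis, had values on arrays 3 and 4 only, at -2.95 and -2.05, and was not tested, and the endonuclease gene HO had no value here. Of the 9 tested genes, 8 also differed from set2Δ. STE18 was the exception (difference -0.66, adjusted p = 0.082).

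**Figure D1:**
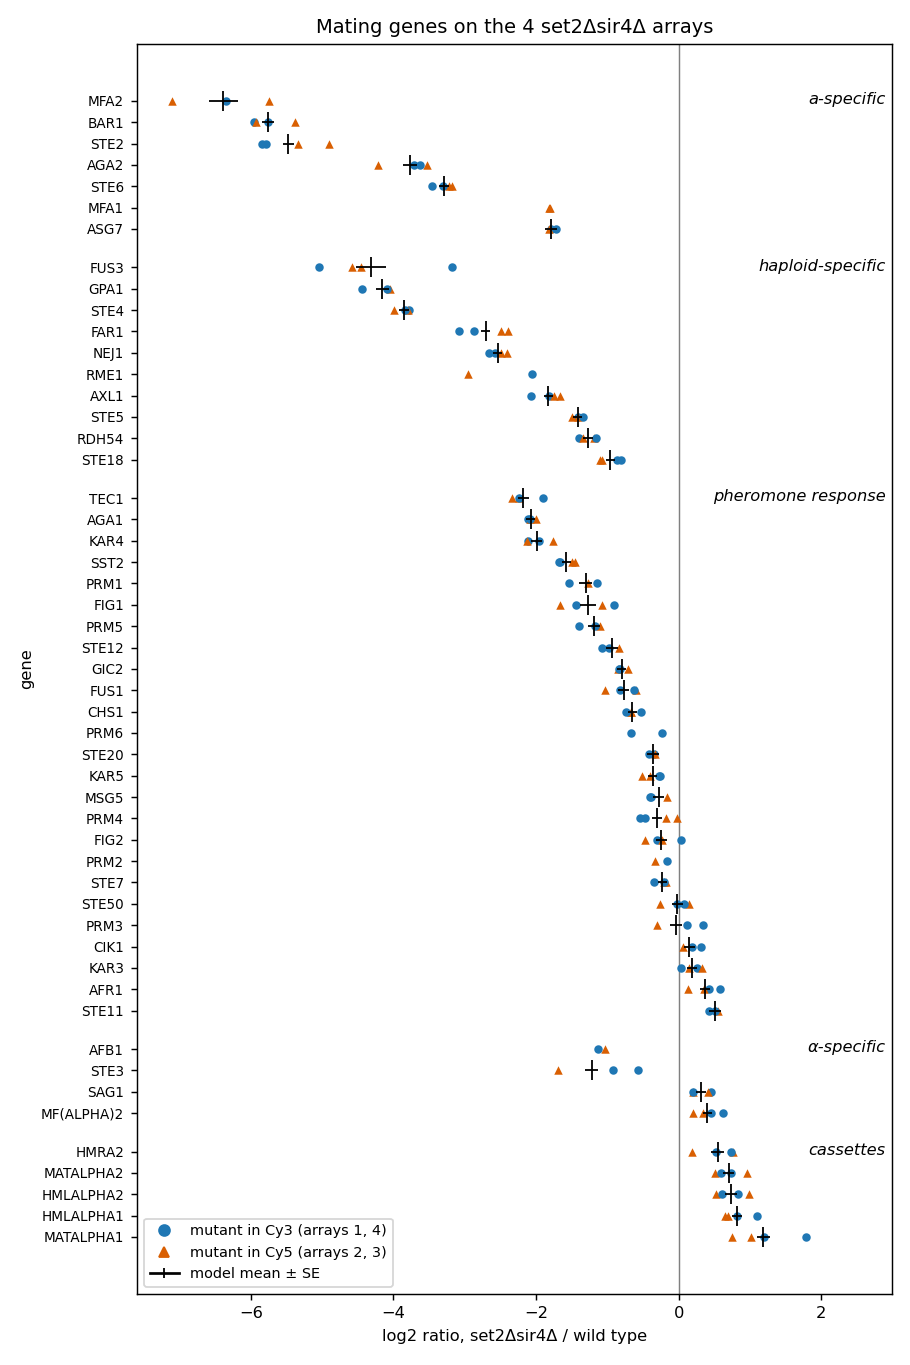
Log2 ratio of set2Δsir4Δ over wild type (horizontal axis) for the mating genes (vertical axis, grouped by list), with 1 symbol for each array, a circle for the mutant in Cy3 and a triangle for Cy5, and a black tick with its SE for the fitted mean where a test was possible. The a-specific and haploid-specific genes lie below 0 on every array, from -7.10 for MFA2 on array 3 to -0.80 for STE18 on array 4, while the cassette genes lie above 0 on every array.

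The pheromone response list held the shared kinases, the transcription factors and their targets, and it changed less uniformly. Of 26 genes, 23 were tested, and 17 were lower (73.9%, against 25.1% of all ORFs), 11 of them by at least 1.5-fold. There were 3 higher (13.0%, against 21.3%) and 3 not called, with a median of -0.36. Without array 1, 10 of 15 tested members were lower, and without array 2, 11 of 15. Among the kinases, STE20, at the top of the cascade, averaged -0.36 ± 0.08 (n = 3) and STE7, the kinase just above FUS3, -0.23 ± 0.06, which was not called without array 1. STE11, which acts between those kinases, was higher, with values of 0.42, 0.56 and 0.51 on arrays 1, 2 and 4 and a mean of 0.51 ± 0.08 (n = 3). STE50, a partner of Ste11, averaged -0.02 ± 0.08 (adjusted p = 0.89). The kinases of the cascade therefore lay on both sides of wild type, with FUS3 far below the others.

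Among the transcription factors, STE12, the activator of pheromone-induced genes, read -0.98, -0.84 and -1.08 on arrays 1, 2 and 4, with a mean of -0.93 ± 0.08 (n = 3). TEC1, its partner at filamentation genes, read -1.90, -2.34, -2.24 and -2.23, with a mean of -2.18 ± 0.07, and could be tested on these 4 arrays but not on the set2Δ arrays. KAR4, a factor for genes of nuclear fusion, averaged -1.99 ± 0.08. All 3 factors were lower on every array with a value.

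The targets ranged from 4.2-fold lower to slightly higher. AGA1, the anchor subunit of a-agglutinin, averaged -2.07 ± 0.06, with all 4 arrays between -2.12 and -2.00. SST2, which switches the G protein off, averaged -1.57 ± 0.06, and the cell fusion genes PRM1 and FIG1 averaged -1.31 ± 0.10 (n = 3) and -1.27 ± 0.11. FUS1, a fusion protein that is strongly induced by pheromone, averaged -0.77 ± 0.08, GIC2, an effector of cell polarity, -0.80 ± 0.06, and CHS1, a chitin synthase, -0.65 ± 0.07. PRM5 averaged -1.19 ± 0.09 (n = 3). These 8 targets were below wild type on every array with a value. The remaining targets were within 1.5-fold of wild type. KAR5, for nuclear membrane fusion, averaged -0.36 ± 0.06, PRM4 -0.30 ± 0.07, MSG5, a phosphatase of Fus3, -0.28 ± 0.08 (n = 3), and FIG2, a cell wall adhesin, -0.25 ± 0.08. The FIG2 call was lost without array 1 and without array 2. The karyogamy motor subunit CIK1 was at 0.15 ± 0.08 (n = 3) and PRM3 at -0.04 ± 0.09 (n = 3), neither called, and the motor KAR3 at 0.19 ± 0.07 lost its call without array 1 and without array 2. AFR1, a regulator of receptor signalling and cell shape, was higher at 0.37 ± 0.07. Of 21 members tested in both mutants, 9 were lower in set2Δsir4Δ than in set2Δ and none was higher, against 1.71% and 0.988% of all ORFs.

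Genes specific to α cells did not move in 1 direction. STE3, the receptor for a-factor, read -0.92, -1.69 and -0.57 on arrays 1, 2 and 4. Its fitted mean, which weights both dye orientations equally, was -1.22 ± 0.09 (n = 3, adjusted p = 5.6e-06), against a plain mean of -1.06, and its dye term passed the test (adjusted p = 0.032). SAG1, the α-agglutinin gene, averaged 0.31 ± 0.07 and MF(ALPHA)2, a gene for α-factor, 0.40 ± 0.07, both higher on all 4 arrays. Neither differed from set2Δ by the test, where they averaged 0.52 and 0.66 (adjusted p = 0.55 and 0.47 for the differences). AFB1, which codes for the barrier protein against a-factor, had 2 values, -1.12 and -1.04, and MF(ALPHA)1 had none. The list therefore held 2 higher genes, 1 lower gene and 2 without a test.

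The cassette genes were higher. All 5 of 6 with a test were higher, 4 of them by at least 1.5-fold, with a median of 0.74. MATALPHA1 read 1.19, 0.75, 1.02 and 1.78, with a mean of 1.19 ± 0.09, and HMLALPHA1, which carries the same α1 activator at the silent cassette, read 0.82, 0.65, 0.70 and 1.09, with a mean of 0.82 ± 0.07. HMLALPHA2 and MATALPHA2, the α2 repressor genes, averaged 0.74 ± 0.08 and 0.70 ± 0.08. Their readings were nearly equal array by array, 0.84, 0.99, 0.52 and 0.60 against 0.74, 0.97, 0.51 and 0.59. Copies at HML and MAT are near-identical in sequence, so their spots cannot be told apart as sources of this RNA. HMRA2 shares part of its sequence with α2 and averaged 0.55 ± 0.09, with readings from 0.18 on array 3 to 0.77 on array 2. HMRA1, the a1 gene of the silent cassette, had no value here. The 3 cassette genes tested in both mutants had differences from set2Δ of 0.53 to 0.72, and none passed the test (adjusted p between 0.088 and 0.26).

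Of 15 tested early meiosis genes, 4 were higher and 4 lower, and the median was -0.01. Both shares, 26.7%, were near the 21.3% and 25.1% of all ORFs. With an array left out fewer members could be tested, and the lower count was 1 without array 1 and 2 without each other array, while the higher count was 2 without array 1. IME4, an RNA methyltransferase needed to enter meiosis, averaged -1.40 ± 0.11 (n = 3), and YGL193C, the next ORF by name on chromosome VII, read -1.21, -1.62, -1.85 and -1.63, with a mean of -1.58 ± 0.08. DMC1, the meiotic recombinase, averaged -1.09 ± 0.08 (n = 3), and NDJ1, which tethers telomeres in meiosis, averaged -2.17 ± 0.12 (n = 3, arrays between -2.63 and -1.95). IME2, a meiotic kinase, HOP1, an axis protein, and SPO1, a phospholipase homologue, were higher at 0.40 ± 0.07, 0.39 ± 0.07 and 0.61 ± 0.10 (n = 3 for SPO1). NDJ1 differed from set2Δ by -2.27 (adjusted p = 9.8e-05), while none of the 11 early meiosis genes tested in both mutants did.

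Several of the lowest ORFs stood beside other low ones. MPF1 (YNL144C), next by name to MFA2 (YNL145W), averaged -2.03 ± 0.07 with arrays between -2.31 and -1.87. YFL012W, an ORF with no assigned role here, averaged -1.91 ± 0.08. YJR026W, YJR027W and YJR028W, neighbours on chromosome X, averaged -1.58 ± 0.11 (n = 3), -1.56 ± 0.07 and -1.65 ± 0.08, and YML039W on chromosome XIII averaged -1.58 ± 0.08 (n = 3). In the RefSeq table YJR026W and YJR027W start at the same base, and YJR027W and YML039W have the same length, so these spots may share signal and count as fewer than 4 independent findings. BSC1 read -2.39, -1.69 and -0.996 on arrays 1, 2 and 4, with a mean of -1.69 ± 0.21 (n = 3). Its spread was wide, and its call was lost with robust variance moderation (adjusted p = 0.15).

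Near chromosome ends a larger share of genes was higher. Among the 5 outermost ORF names of each chromosome end, 114 were tested and 76 were higher, 60 of them by at least 1.5-fold (52.6%, against 4.94% of all ORFs), with a median of 0.69. Further in, the share was 16.7% for names 6 to 10 and 7.41% for names 11 to 15, was 8.51% for names 16 to 20 and 3.58% for names 21 to 30, and was 3.32% for the 4662 beyond. The share lower by at least 1.5-fold ran from 2.51% to 6.52% over the same steps, with no such course. Of the outermost 5 names, 79 were tested in both mutants. Of these, 20 were higher in set2Δsir4Δ than in set2Δ and 0 lower, against 0.988% and 1.71% of all ORFs. For names 6 to 10, 9 of 115 were higher and 5 lower. Most ORFs near the ends were therefore not called different from set2Δ. Counting places by the genes of the RefSeq table instead gave 48.2% for the 5 outermost, 19.9% for the 15 outermost and 12.4% for the 30 outermost, and 18.3% for the 15 outermost without multigene families.

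**Figure D2:**
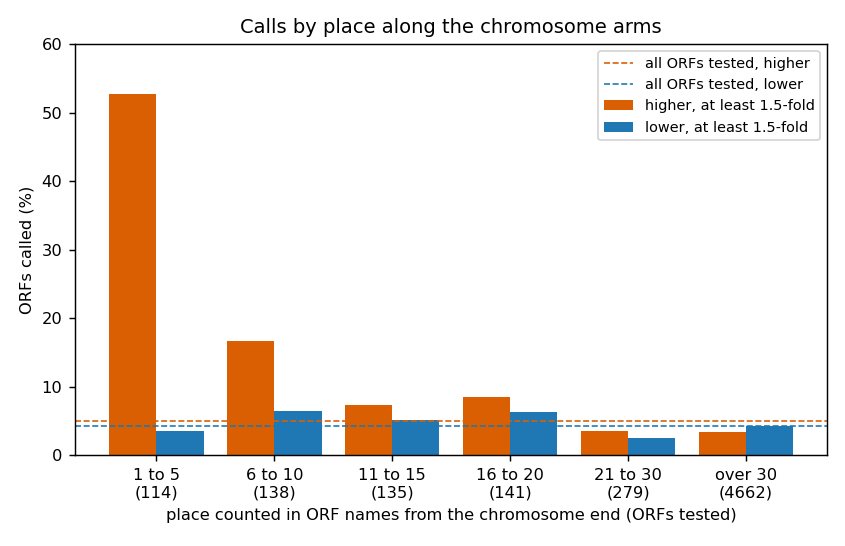
Share of tested ORFs (percent, vertical axis) called at least 1.5-fold higher or lower in set2Δsir4Δ, by place from the chromosome end (horizontal axis, in ORF names), with the share over all ORFs as a line for each direction. The share higher drops from 52.6% in the outermost 5 names to 3.32% beyond 30, while the share lower stays between 2.51% and 6.52%.

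The pattern was spread over the genome. Of 32 chromosome ends, 26 had at least 1 of their 5 outermost names higher by at least 1.5-fold. At any size 30 had at least 1 higher, and 29 had a median above 0. Over all ORFs 21.3% were higher, 4.94% by at least 1.5-fold, and the same counts were not made for groups of 5 names elsewhere. The right end of VII and the left ends of IX and XI had medians below 0. Some of these ORFs have no entry in the RefSeq table and could be placed only by their systematic names. Of 23 such ORFs tested among the outermost 5 names, 14 were higher (60.9%), 12 by at least 1.5-fold (52.2%). YNL337W averaged 2.01 ± 0.06, YFL063W 2.04 ± 0.07, YAL069W 1.94 ± 0.07 and YLL065W 1.96 ± 0.09 (n = 3). All 4 were more than 3-fold above wild type. Chromosome ends carry repeated sequence, so a spot can pick up RNA from several copies, and whether that happened was not tested.

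The COS family, subtelomeric membrane proteins that help to sort other membrane proteins for degradation, lies almost wholly at these ends. Of 12 tested genes 10 were higher (83.3%, against 21.3% of all ORFs), 9 by at least 1.5-fold (75%, against 4.94%), with a median of 1.28. COS12 read 3.32, 3.10, 3.24 and 3.43, with a mean of 3.27 ± 0.07 (adjusted p = 6.0e-11), and stood far above the rest. COS1 to COS8 fell in a narrow band between 1.13 ± 0.07 for COS8 and 1.35 ± 0.07 for COS2. COS9 was at 0.57 ± 0.07. COS10, at -0.43 ± 0.06, was lower, and COS111, at 0.18 ± 0.08, was not called; both were named after their values were seen. The members are close in sequence, so the band may partly reflect shared signal, which was not tested. Of 10 members tested in both mutants, 7 were higher in set2Δsir4Δ than in set2Δ, for example COS1 by 0.91 and COS8 by 0.74. COS1 to COS8 also averaged above wild type on the set2Δ arrays, from 0.39 for COS4 to 0.96 for COS6. COS9 was at -0.002 there. COS6, COS7 and COS9 did not differ between the mutants by the test (differences 0.31, 0.48 and 0.57, adjusted p = 0.60, 0.55 and 0.16).

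The YRF1 helicases, encoded in the Y' elements of the chromosome ends, were higher in all 3 of the 8 that were tested, at 0.86 ± 0.08 (n = 3) for YRF1-2, 0.81 ± 0.08 (n = 3) for YRF1-4 and 0.75 ± 0.07 for YRF1-5. The PAU, DAN and TIR genes, mannoproteins of anaerobic growth that also lie mostly near ends, did not share the change. Of 22 tested, 2 were higher (9.09%) and 3 lower (13.6%), none by 1.5-fold, against 21.3% and 25.1% of all ORFs, and the median was -0.09. The 2 higher ones, PAU17 and PAU23, averaged 0.20 ± 0.06 and 0.24 ± 0.07. Both lost the call without array 4, and PAU17 also without array 1. The lower count was 1 without array 4. Lowered genes were also found near ends. PHO11 and PHO12, secreted acid phosphatases, averaged -1.19 ± 0.07 and -1.15 ± 0.08, and the pyridoxine gene pairs SNZ2 with SNO2 and SNZ3 with SNO3 averaged from -1.55 to -1.23.

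Both arms of chromosome III carry a silent cassette, and the genes around them were read in order. On the left, the 3 outermost names YCL076W, YCL075W and YCL074W averaged 1.83 ± 0.06, 2.28 ± 0.06 and 2.95 ± 0.08 (n = 3). Their dye terms passed the test (adjusted p = 0.032, 0.0085 and 0.017). YCL075W read 2.81 on both arrays with the mutant in Cy3 and 1.80 and 1.71 with it in Cy5, so the size of its increase moved with the dye but its direction did not. Further in, GEX1, a glutathione exchanger, was not called at 0.09 ± 0.06. The transporter gene VBA3 was higher at 0.83 ± 0.06 and YCL068C at 0.57 ± 0.06. HMLALPHA2 and HMLALPHA1 followed, then YCL065W at 1.37 ± 0.08 and CHA1, a serine and threonine deaminase, at 0.39 ± 0.07. Inward of CHA1, VAC17 was not called at 0.17 ± 0.08 (n = 3).

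On the right arm the increase was split. AAD3, an aryl-alcohol dehydrogenase, was at 0.88 ± 0.08 and RDS1, a transcription factor, at 1.27 ± 0.07, while YCR102C was lower at -0.23 ± 0.06 and YCR101C was not called at 0.11 ± 0.07. GIT1, a transporter of glycerophosphoinositol that lies outside HMR, read 1.84, 1.35, 1.49 and 1.69, with a mean of 1.59 ± 0.07. On the set2Δ arrays GIT1 averaged -0.55, and the difference between the mutants was 2.14 (adjusted p = 5.0e-05). On the inner side of HMRA2, OCA4 was at -0.18 ± 0.07 and CDC50 at 0.00 ± 0.08 (n = 3). All measured ORFs from AAD3 to HMRA2 other than YCR102C and YCR101C were called higher.

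**Figure D3:**
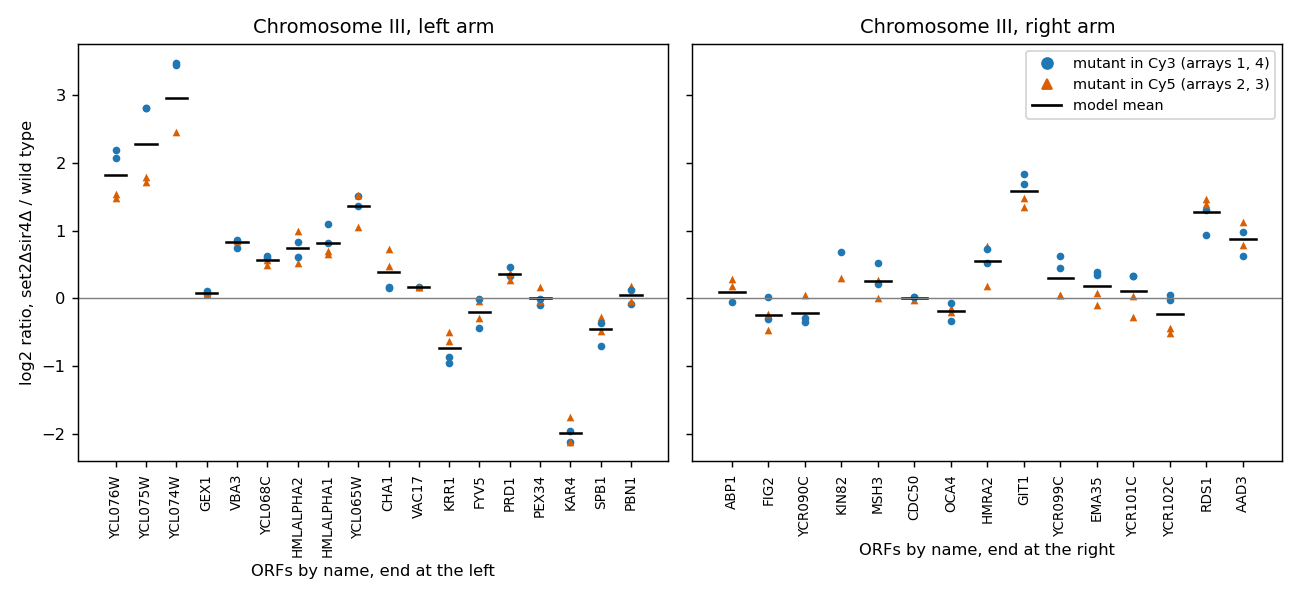
Log2 ratio of set2Δsir4Δ over wild type (vertical axis) for ORFs in order along the outer parts of the left and right arms of chromosome III, 1 symbol for each array, a circle for the mutant in Cy3 and a triangle for Cy5, with the fitted mean as a bar. The fitted means are 2.95 at YCL074W, 0.82 at HMLALPHA1, 0.55 at HMRA2 and 1.59 at GIT1, and KAR4, further in on the left arm, lies at -1.99.

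Genes of the general stress response, which protect cells from heat, oxidation and starvation, were mostly higher. Of 31 tested, 26 were higher (83.9%, against 21.3% of all ORFs), 20 by at least 1.5-fold (64.5%, against 4.94%), with a median of 0.76. HSP12, a small membrane-protecting heat shock protein, read 2.22, 2.45, 1.94 and 2.47, with a mean of 2.27 ± 0.09. TSL1, a subunit of trehalose synthase, averaged 1.84 ± 0.10, PGM2, a phosphoglucomutase, 1.70 ± 0.08 (n = 3), and CTT1, the cytosolic catalase, 1.39 ± 0.08. The single lower member was HSP26, a small heat shock chaperone, which read -1.67, -1.54, -1.85 and -1.22, with a mean of -1.57 ± 0.09. HSP26 (YBR072W) is next by name to the haploid-specific gene RDH54 (YBR073W), at -1.27 ± 0.07. Whether these decreases are linked was not tested. On the set2Δ arrays HSP26 averaged -0.08, with 0.14, 0.27 and 0.28 on arrays 1 to 3 but -0.997 on array 4. HSP26 differed between the mutants by -1.50 (adjusted p = 0.0075), the only one of 29 stress genes tested in both that did.

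Of 22 heat shock chaperones and co-chaperones, 21 were higher (95.5%, against 21.3% of all ORFs), with a median of 0.67. By at least 1.5-fold 13 were higher (59.1%, against 4.94%). CDC37, at 0.23 ± 0.09 (n = 3), was not called. HSP104, which pulls proteins out of aggregates, averaged 1.49 ± 0.09 (n = 3), its mitochondrial relative HSP78 1.32 ± 0.09 (n = 3), the Hsp70 SSA1 0.81 ± 0.07, and the Hsp90 co-chaperones STI1 and AHA1 0.90 ± 0.07 and 0.84 ± 0.06. STI1 was 0.66 above its value in set2Δ, a difference that passed the test (adjusted p = 0.030). Genes of respiration rose by less. Of 33 tested, 28 were higher (84.8%), 7 by at least 1.5-fold (21.2%), with a median of 0.37. They were led by CIT1, citrate synthase, at 0.93 ± 0.07, LSC2, of succinyl-CoA ligase, at 0.82 ± 0.06, and ACO1, aconitase, at 0.81 ± 0.06. FUM1, fumarase, was the only lower one, at -0.32 ± 0.06.

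Ribosome biogenesis moved the other way. Of 50 tested genes, 45 were lower (90%, against 25.1% of all ORFs), 18 by at least 1.5-fold (36%, against 4.26%). None was higher, and the median was -0.47. NSR1, a nucleolar protein for rRNA processing, read -1.46, -0.88, -0.73 and -1.03, with a mean of -1.03 ± 0.08, the RNA helicase DBP2 averaged -1.01 ± 0.08, EBP2 -0.94 ± 0.07 and KRR1 -0.74 ± 0.06. RLP7 averaged -0.75 ± 0.06, with -1.02 for the Cy3 arrays and -0.48 for the Cy5 arrays, and its dye term passed the test (adjusted p = 0.045). The 122 ribosomal protein genes themselves stayed near 0. Of these, 9 were higher (7.38%) and 5 lower (4.10%), both below the shares of all ORFs, none by 1.5-fold, and the median was -0.00. Without array 4 the counts were 2 and 1, and without array 3 the lower count was 10. No tested member of the respiration, ribosome biogenesis and ribosomal protein lists was called different between set2Δsir4Δ and set2Δ.

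**Figure D4:**
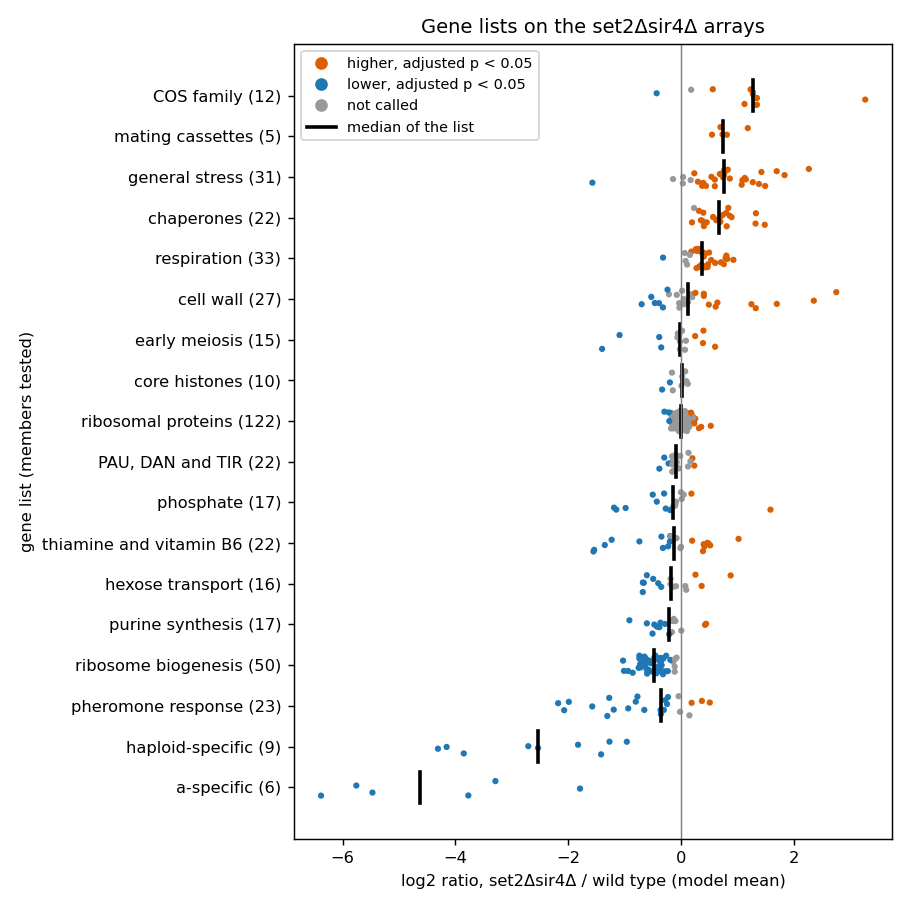
Log2 ratio of set2Δsir4Δ over wild type (horizontal axis) for each tested member of the gene lists, 1 point for each gene coloured by its call, with the median of each list as a bar; vertical scatter within a list has no meaning. The a-specific and haploid-specific lists have medians of -4.62 and -2.54, ribosome biogenesis -0.47, ribosomal proteins -0.00, general stress 0.76 and the COS family 1.28.

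Cell wall genes had a median of 0.13. Of 27 tested, 11 were higher (40.7%, against 21.3% of all ORFs), 7 of them by at least 1.5-fold (25.9%, against 4.94%). The 6 lower ones (22.2%) were near the 25.1% of all ORFs. HPF1, a mannoprotein gene near the left end of XV, read 2.33, 3.45, 2.36 and 2.88, with a mean of 2.76 ± 0.15. Its relative CSS1 averaged 2.36 ± 0.08, with 1.91 for the Cy3 arrays and 2.81 for the Cy5 arrays (dye term adjusted p = 0.020). YGP1, SED1 and CWP1, wall glycoproteins, averaged 1.70 ± 0.06, 1.33 ± 0.09 and 1.25 ± 0.09. None of these 5 was called different from set2Δ, where they averaged 1.28, 1.17, 1.98, 1.06 and 1.20. PUL3 and YNR064C, near the right end of XIV, averaged 1.80 ± 0.08 (n = 3) and 2.13 ± 0.07, and OPT2, a peptide transporter, 1.84 ± 0.09 (n = 3). All 3 were also high on the set2Δ arrays, at 2.41, 2.69 and 1.58.

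Nutrient lists held calls in both directions, to be read against the 21.3% higher and 25.1% lower of all ORFs. Of 17 phosphate genes, 8 were lower and 2 higher, with PHO89, a phosphate transporter, at -0.98 ± 0.08 and a median of -0.14. Without arrays 1, 2 or 4 in turn, 4 or 5 of 13 or 14 tested were lower. Of 22 thiamine and vitamin B6 genes, 10 were lower and 8 higher, and SNZ1 was higher at 1.02 ± 0.06 while SNZ2 and SNZ3 were lower at -1.55 ± 0.08 (n = 3) and -1.54 ± 0.07. SNZ2 and SNZ3 were at -0.29 and -0.07 in set2Δ, and both differed between the mutants by the test. Without array 1, 4 of 15 tested were lower and 5 higher.

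Of 9 galactose genes, GAL10, GAL7 and GAL3 were lower at -0.61 ± 0.06, -0.45 ± 0.08 (n = 3) and -0.76 ± 0.09 (n = 3), and PGM2, above, was higher. Without array 1 or array 3, 1 was lower. Of 17 purine genes, 9 were lower (52.9%) and 2 higher (11.8%), with ADE1 at -0.91 ± 0.08. No lower call in the galactose and purine lists reached 2-fold. Of 16 hexose transport genes, 7 were lower (43.8%) and 3 higher (18.8%). The closely related HXT13, HXT15, HXT16 and HXT17 averaged from -0.68 to -0.60, and HXT6, a high-affinity glucose transporter, 0.88 ± 0.10. Of 36 amino acid genes under Gcn4, 11 were higher (30.6%) and 13 lower (36.1%; 5 higher without array 1, 7 without array 3 or array 4). Of 23 methionine and sulphate genes, 7 were higher (30.4%) and 4 lower (17.4%), and without array 1, 4 and 2. Of 19 iron genes, 4 were higher (21.1%) and 3 lower (15.8%), at or below the shares of all ORFs, and without array 1 or array 4, 2 were higher. BNA1, of NAD synthesis, averaged -1.15 ± 0.07 and MUP3, a methionine permease, 0.70 ± 0.07. Among 5 genes that often serve as auxotrophic markers, LYS2 was higher at 1.59 ± 0.06, TRP1 was higher at 0.25 ± 0.06, ADE2 was lower at -0.50 ± 0.06, and HIS3 and CAN1 were not called at -0.13 ± 0.07 and 0.00 ± 0.06. LYS2 was also high in set2Δ, at 2.30.

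Of 23 tested genes of the Set2 and Sir pathways, 3 were higher (13.0%) and 5 lower (21.7%), SET2 included, against 21.3% and 25.1% of all ORFs. SAS4 and SAS5, subunits of a histone acetyltransferase that limits Sir spreading, moved apart, at 0.75 ± 0.08 and -0.52 ± 0.08. SIR2, the deacetylase of the Sir complex, averaged -0.47 ± 0.07 and RIF2, a telomere-binding protein, -0.38 ± 0.07. The RIF2 call was lost in the 8-array fit (limma, adjusted p = 0.10). By name SAS5 (YOR213C) lies beside STE4 (YOR212W) and RIF2 (YLR453C) beside SST2 (YLR452C), mating genes that were lower. Whether these neighbours bear on the SAS5 and RIF2 values was not tested. Of 10 genes on the core histone list, which also holds the variant HTZ1 and the linker histone HHO1, 2 were lower. HHT1 read -0.79, 0.22, -0.05 and -0.71, with opposite signs of the Cy3 and Cy5 means and no call without the dye term (adjusted p = 0.13), and HHT2, at -0.20 ± 0.07, lost its call without arrays 1, 3 or 4. Of 7 genes known for cryptic start sites inside them, 5 were higher, none by 1.5-fold, with a median of 0.36, namely STE11 with PCA1, APM2, LCB5 and DDC1 at 0.32 to 0.42. There were 3 of 5 higher when array 1, 2 or 4 was left out.

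The dye term passed the test for 208 ORFs (3.8%), of which 138 had a lower ratio with the mutant in Cy5. Among the 503 ORFs changed by at least 1.5-fold it passed for 39 (7.75%), so the size of some of the larger changes moved with the dye. Of the 2540 called ORFs, 2210 had 1 sign on all measured arrays. In 93 the Cy3 and Cy5 arrays had means of opposite sign, 49 of them higher and 44 lower, and none of the 93 was changed by 1.5-fold. Across ORFs, ratios correlated at 0.90 and 0.86 between arrays of the same orientation and at 0.69 to 0.80 between arrays of opposite orientation. Each pair of arrays had 4622 to 5325 ORFs in common. Arrays of the same orientation may also share RNA preparations, which the labels do not settle.

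**Figure D5:**
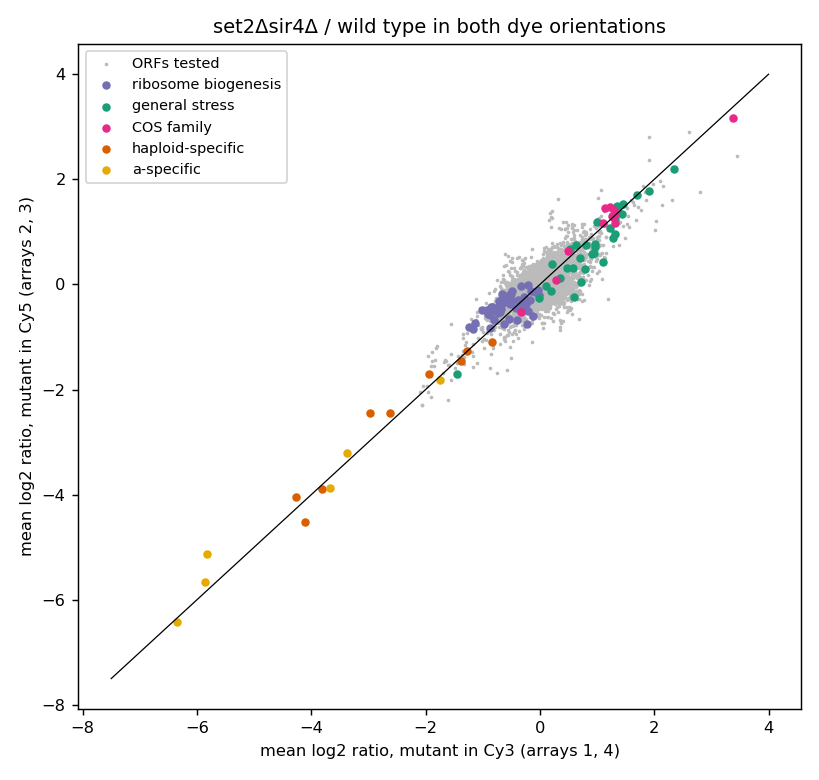
Mean log2 ratio of the arrays with the mutant in Cy5 (vertical axis) against that of the arrays with the mutant in Cy3 (horizontal axis), 1 grey point for each tested ORF, with 5 gene lists in colour and the line of equality. The coloured points run from the a-specific gene MFA2, at -6.35 for Cy3 and -6.42 for Cy5, to COS12, at 3.38 and 3.17. STE2, at -5.82 and -5.13, is among the points off the line.

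ORFs that could be tested only on these 4 arrays numbered 915, of which 769 had no value at all on the set2Δ arrays and 341 are not listed in the RefSeq table. Of the 915, 233 were higher (25.5%) and 176 lower (19.2%), 52 and 43 of them by at least 1.5-fold (5.68% and 4.70%), shares close to the 21.3%, 25.1%, 4.94% and 4.26% of all ORFs. COS12, the 3 outermost names of the left arm of III, SET2, TEC1 and STE11 belong to them. YFL043C averaged 1.73 ± 0.09 (n = 3) and YMR326C 1.63 ± 0.08 (n = 3), the latter with 2.04 for the Cy3 arrays and 1.21 for the Cy5 arrays. How these ORFs stand in set2Δ was not measured by enough arrays.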

How the data were processed

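Two-colour ORF arrays of 4 set2Δsir4Δ and 4 set2Δ samples, each against wild type, were analysed from the values the authors deposited for each array, which per the labels are log2 ratios of mutant over wild type. The sources used here do not say how the authors corrected background, normalized or filtered spots. The spacing of the deposited log2 values was tested: with base 2 and Cy5 over Cy3, 100% of gaps were whole multiples of 1 step within 0.02, against at most 12.7% otherwise, so arrays with the mutant in Cy3 had been turned to mutant over wild type before deposit. Array medians lay between -0.02 and -0.01 on the set2Δsir4Δ arrays, which held 4846 to 5577 values, and no further normalization was applied. No 2 arrays held identical values. Gene names and gene order came from the RefSeq table, which named 5856 of 6267 ORFs, and ORFs it does not list were placed by their systematic names. Its sequences, and any genome, were not used here, and no coordinates are given.

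ORFs with at least 3 of 4 set2Δsir4Δ values were fitted with limma 3.58.1 in R 4.3.3 (lmFit and eBayes, a mean and a dye orientation term, prior degrees of freedom 8.64), the mean was tested against 0, and p-values were adjusted over all ORFs by Benjamini-Hochberg with a limit of 0.05. Differences from set2Δ came from a fit over 8 arrays with 1 dye term, in ORFs with at least 3 values in each group. Those 2 sets of ratios may share wild-type RNA, which the labels do not settle. On 20 simulated data sets of 5469 genes for the set2Δsir4Δ test, 79.5% of 1.25-fold and 99.7% of 1.5-fold changes were recovered, and 4.93% of calls were false. The simulated errors were drawn from the fitted model and were independent between arrays. With 200 changed genes per size, a smaller share changed than the 46.4% called in the data. The simulation held no error shared between arrays, so it cannot give the share of false calls on the real arrays.

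The comparison and the gene lists were chosen with earlier results of these data known. Genes were named by a rule: the deleted genes and all mating genes, the 15 highest and 15 lowest called ORFs with 1 sign on every array, the 10 highest and lowest measured only on these arrays, and up to 5 members with the smallest p from each other list (10 for the COS family and chromosome ends). The neighbours on chromosome III, COS10, COS111, CDC37 and FUM1 were named after their values were seen. Replicate numbers shared by the 2 groups were not treated as pairs. Deviations of same-numbered arrays from their group means correlated at 0.23, -0.16, 0.16 and -0.20. The deviations were not adjusted for dye, and the sign was positive where the mutant carried the same dye on both arrays and negative elsewhere. They therefore cannot decide whether arrays were paired. Alternatives were other scalings, no dye term, array weights, robust moderation, an 8-array fit, other filters on missing values, stricter limits, other widths of the chromosome ends and each array left out; places by systematic names and agreement of both dye orientations were added after seeing the data.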

Additional observations from a re-analysis of the deposited data

Results flagged for a closer look

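The values below are differences in mean log2 ratio, set2Δsir4Δ minus set2Δ, for named genes whose difference passed the test over 8 arrays (limma, adjusted p below 0.05), a test that 2.7% of all ORFs passed. Among a-specific genes these were MFA2 at -6.59, BAR1 at -5.65, STE2 at -5.53, STE6 at -3.13, AGA2 at -2.98 and ASG7 at -1.28. Among haploid-specific genes they were FUS3 at -3.87, STE4 at -3.67, GPA1 at -3.65, FAR1 at -2.52, NEJ1 at -2.39, AXL1 at -1.99, STE5 at -1.44 and RDH54 at -1.20. The pheromone response gave AGA1 at -2.19, FIG1 at -1.79, KAR4 at -1.72, PRM5 at -1.55, SST2 at -1.42, GIC2 at -0.96, CHS1 at -0.76, STE12 at -0.70 and MSG5 at -0.66. FIG1, PRM5, GIC2, CHS1 and MSG5 had set2Δ means above 0, at 0.52, 0.31, 0.16, 0.11 and 0.36.

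Genes higher in set2Δsir4Δ than in set2Δ were fewer. GIT1, beside HMR, differed by 2.14. The COS family gave COS1 at 0.91, COS4 at 0.91, COS2 at 0.90, COS8 at 0.74, COS3 at 0.73 and COS5 at 0.72. The helicase YRF1-4 differed by 0.59 (adjusted p = 0.049). Its relatives YRF1-2 and YRF1-5 did not pass the test, at 0.57 and 0.41 (adjusted p = 0.36 and 0.37). The co-chaperone STI1 differed by 0.66.

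Other genes were lower in set2Δsir4Δ than in set2Δ. These were NDJ1 at -2.27, MPF1 at -2.11 and the heat shock gene HSP26, next by name to RDH54, at -1.50. The pyridoxine genes gave SNZ3 at -1.47, SNO3 at -1.34, SNO2 at -1.30 and SNZ2 at -1.24. The galactose genes gave GAL10 at -1.21 and GAL7 at -0.81, and the cadmium pump PCA1 was at -0.94. Further ones were BNA1 at -0.81, the iron-binding wall protein FIT2 at -0.76, ADE1 at -0.60 and ARG4 at -0.55. GAL10 and GAL7 were above wild type in set2Δ, at 0.60 and 0.38, and below it in set2Δsir4Δ, at -0.61 and -0.45. PCA1 was above wild type in both, at 1.34 and 0.40.

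Among the 138 named genes with 4 values, 2 had 1 array far from the other 3 by Dixon's test at its 95% limit, which chance alone reaches in about 5% of groups. ADE17, of purine synthesis, read -0.683 on array 1 and -0.41 to -0.39 on the others, and SNZ3 read -1.34 on array 4 and -1.62 to -1.58 on the others. All arrays of both genes lay below 0.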

How the results depend on the processing

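Of 1166 higher and 1374 lower ORFs, an 8-array fit called 670 and 793, and a limit of at least 1.5-fold left 270 and 233. At an adjusted p limit of 0.01, 903 were lower. Leaving out 1 array in turn gave 705 to 1110 higher and 843 to 1280 lower, over the 4454 to 5060 ORFs measured on all 3 remaining arrays. Every ORF of the 503 changed by at least 1.5-fold that could be tested was called again without each array, and 498 to 503 were called again under other scalings, no dye term, array weights, robust moderation and the 8-array fit. Centring the arrays gave 1265 higher and 1270 lower. With set2Δ as the comparison, 45 higher and 78 lower became 15 and 46 with a replicate block, and 108 and 166 with a dye term for each group. The share of genes near chromosome ends raised by at least 1.5-fold was 19.9% for the 15 outermost, 48.2% for the 5 outermost and 12.4% for the 30 outermost. Of the single-gene values, those that changed sign belonged to genes never called. STE50 was at 0.0028 with centred arrays, 0.0022 with centred and scaled ones, and between -0.12 and 0.086 with an array left out. CAN1 was at -0.0016 with quantile normalization and between -0.020 and 0.022 with an array left out. PRM3 was at 0.049 without the dye term, also with at least 2 values, and at 0.054 in the 8-array fit. Apart from the 1.5-fold limit, the widths and the array left out, where the rule itself changes what is counted, the cause was not tested. Spot intensities were not used here, so signal over background is unknown, and HMRA1, MF(ALPHA)1 and HO had no value.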
